A study of Mus musculus with 6 samples.

Results

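The genes of the respiratory chain and of ATP synthase were followed in Kupffer cells, macrophages that reside in the liver. Members were the rows of the count table whose symbol starts with mt-, Nduf, Uqcr, Atp5 or Cox followed by a digit, or is Sdha, Sdhb, Sdhc, Sdhd, Cycs or Cyc1, leaving out pseudogenes marked -ps and rows with fewer than 20 counts over the 6 libraries. They came to 113 of 15458 rows, of which 13 are encoded in mitochondrial DNA (mt- genes) and 100 in the nucleus. The count minimum removed 0 rows. The test covered 112 members, since Ndufa4l2 was too low. Mitochondrial rRNA and tRNA genes were not analysed here.

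The cells were sorted by flow cytometry from livers of C57BL/6 mice, genotype label wild type, on day 18 after implantation of Hepa1-6 tumours, a mouse hepatoma line. In the KC_EV group the tumour cells carried an empty vector, and in the KC_Epo group they overexpressed Epo, the hormone that drives red cell formation. Each group had 3 libraries of polyA RNA, and mice of both groups bore tumours. The comparison asks how Kupffer cell transcripts differed when the tumour produced erythropoietin, here for the machinery of oxidative phosphorylation.

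The respiratory chain passes electrons from NADH and succinate through complexes I to IV to oxygen and pumps protons across the inner mitochondrial membrane, and ATP synthase (complex V) uses that gradient to make ATP. Most subunits are encoded in the nucleus and imported, while a small core is encoded in mitochondrial DNA and transcribed there as long precursors that are cut into the separate RNAs. In macrophages the chain is known to be remodelled with activation state, with alternatively activated cells relying more on it than cells exposed to bacterial products.

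Libraries held 23201076 to 33280754 counts. Levels are given as CPM, read counts scaled to a common library size by TMM, with factors of 1.05 to 1.067 for KC_EV and 0.934 to 0.959 for KC_Epo; each sentence lists libraries 1 to 3 of a group in that order. Groups were apart on the first principal component (63.6% of variance). The 10 Kupffer cell markers summed to between 31350 and 33830 CPM in KC_EV and between 46480 and 52400 CPM in KC_Epo, so these markers were present in every library. Of the 10, 7 were called higher and 1 lower, Adgre1 (-0.72 ± 0.11, SE, edgeR adjusted p = 0.000475), named after its value was seen. Markers of other cell types differed too. The 13 hepatocyte markers summed to 2605, 3242 and 2980 CPM in the KC_EV libraries and to 20590, 6028 and 12310 CPM in the KC_Epo libraries, with 9 of 13 called higher. The 7 tested erythroid markers were all called higher, and the 9 in the table summed to 33.5 to 43.1 CPM in KC_EV and 606 to 1109 CPM in KC_Epo. Of 10 sinusoidal endothelial markers, 6 were called lower and 1 higher, with sums of 4255 to 5005 CPM in KC_EV and 2239 to 2896 CPM in KC_Epo. Stellate cell and fibroblast, cholangiocyte and dendritic cell markers had 3 of 8, 3 of 6 and 4 of 6 called lower. In such bulk samples fewer cells of a type and less RNA per cell cannot be told apart, and the part of these cell types in the values below was not tested.

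With TMM scaling few nuclear respiratory chain genes passed the test. Of 99 tested, 7 rose and 6 fell in KC_Epo by edgeR's quasi-likelihood test at a Benjamini-Hochberg adjusted p of 0.05, a share of 13.1%. Over all 13120 genes tested 32.3% were called, 16.9% as higher and 15.4% as lower. The median log2 fold change of the nuclear members was -0.02, against -0.0045 over all genes. For 74 of 99 nuclear members the estimate lay within 0.2 of 0, a share of 74.8%, against 42.1% of all genes. Members are abundant genes, and among genes with a mean of 10 CPM or more, 35.4% were called against 15.1% of the 86 nuclear members at that level. The estimates ran from -0.48 for Cox6b2 to 0.58 for Cox6a2, both low genes that did not pass.

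The split between rises and falls rested on the scaling. With upper-quartile factors 2 nuclear members were called higher and 16 lower, and with library sizes alone 1 higher and 34 lower. These are 18.2% and 35.4% of the nuclear members, where 32.4% and 36.7% of all genes were called under the same settings, so with library sizes alone the members' share was near that of all genes. Library sizes alone moved the median of all genes from -0.0045 to -0.163 and that of the nuclear members to -0.18. The groups did not overlap in CPM for 31 nuclear members, of which 22 lay lower in KC_Epo and 9 higher, where 48.3% of all genes did not overlap, 24.2% lying lower and 24.1% higher. KC_Epo 1 mattered most for the rises. Without it 18 nuclear members were called higher and 5 lower, while without any other single library 2 or 3 were called higher.

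**Figure D1:**
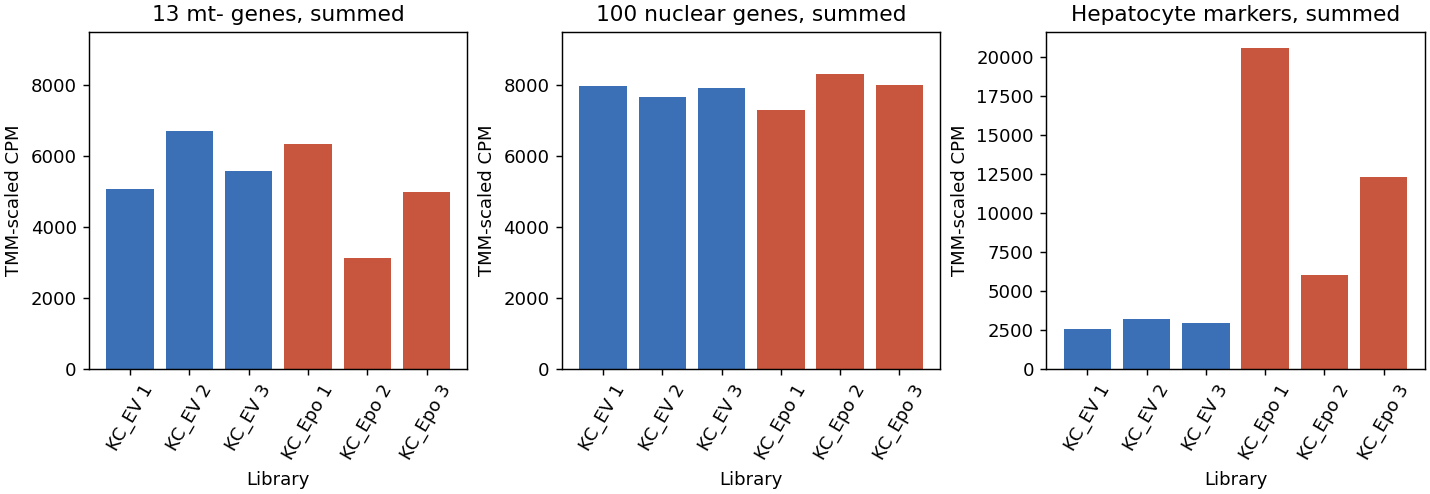
TMM-scaled CPM summed in each library (x axis) over the 13 mt- genes, the 100 nuclear genes and the 13 hepatocyte markers (y axes, 1 bar per library, blue KC_EV, red KC_Epo). The nuclear sums stay between 7320 and 8317 CPM, while KC_Epo 2 is lowest for the mt- genes at 3121 CPM and KC_Epo 1 is highest for the hepatocyte markers at 20590 CPM.

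Summed over the 100 nuclear genes, levels were 7988, 7676 and 7921 CPM in the KC_EV libraries and 7320, 8317 and 8013 CPM in the KC_Epo libraries, so the groups overlapped. As a share of all counts, without TMM scaling, the same genes took 0.838%, 0.819% and 0.834% in KC_EV and 0.702%, 0.777% and 0.758% in KC_Epo, and here every KC_Epo library lay below KC_EV. The difference in the share of counts on nuclear respiratory chain genes was -0.0847 percentage points, and 0.00217 once libraries were scaled by TMM. Other scalings of this sum were not run, and with upper-quartile factors the median of the nuclear members was -0.0829, with 66 of 99 estimates negative. KC_Epo 1, the library with the most hepatocyte marker counts, was the lowest KC_Epo library for 67 of the 100 nuclear members, and KC_Epo 2, with the fewest, was the highest for 57. How often all genes stood in this order was not counted, and the part of hepatocyte RNA in it was not tested.

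**Figure D2:**
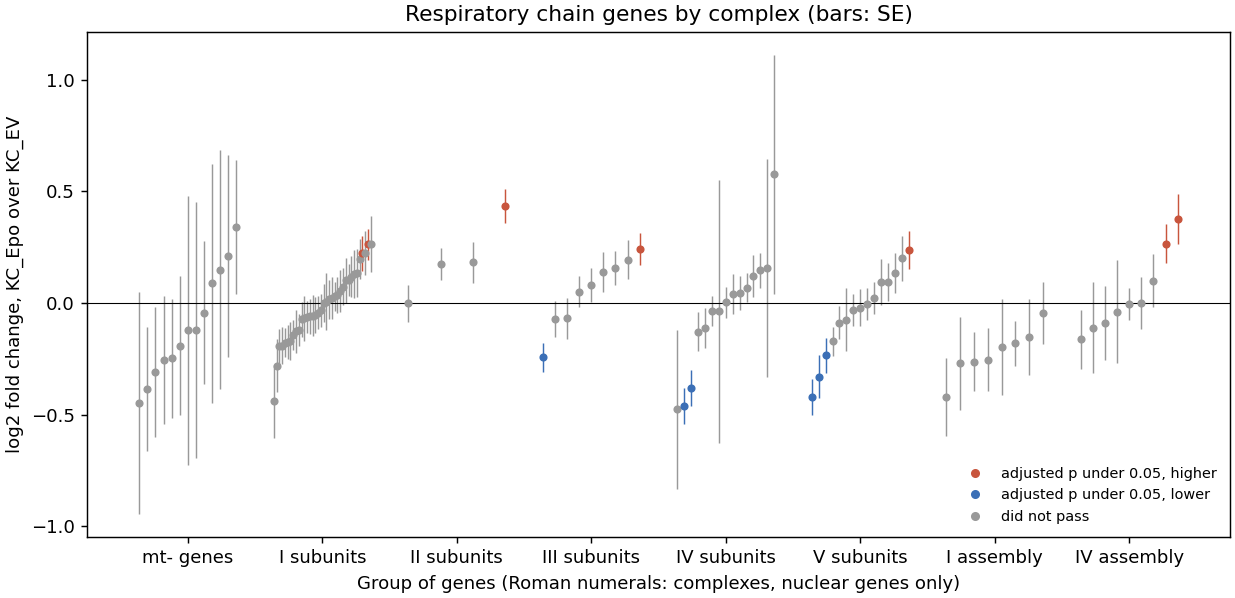
log2 fold change of KC_Epo over KC_EV (y axis, bars are SE) for the tested members grouped as mt- genes, nuclear subunits of complexes I to V and assembly factors of complexes I and IV (x axis), with genes past an adjusted p of 0.05 in colour. Genes past the threshold stand on both sides of 0 in complexes III and V, and the errors of the mt- genes are wider than those of most nuclear genes.

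Complex I is the entry point for NADH. Of its 36 nuclear subunits 2 rose, both accessory subunits, and 0 fell. With DESeq2, and likewise with limma-voom, only 1 of these 2 rose and 0 fell. Other edgeR settings did call falls: 7 accessory subunits with upper-quartile factors, 15 subunits with library sizes alone, and Ndufb2, Ndufb7 and Ndufb11 without KC_EV 1 (adjusted p of 0.0417, 0.029 and 0.0405). Ndufb10 fell with the non-robust fit (adjusted p = 0.0439) and with a filter of 1 CPM in 3 libraries (0.0412). The 7 nuclear core subunits, which carry the redox centres, had a median log2 fold change of 0.03, and 0 passed by edgeR, DESeq2 or limma-voom, 1 (Ndufs8) having an unadjusted p under 0.05. In other edgeR settings Ndufs8 was called higher without KC_Epo 1 (0.30, adjusted p = 0.00956), Ndufs7 higher with the replicate block (0.28, adjusted p = 0.0474) and Ndufs1 lower with library sizes alone (-0.22, adjusted p = 0.0397). The subunits in these sentences were named after their values were seen.

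Ndufa10, an accessory subunit of the complex I membrane arm, stood at 72.9, 65.5 and 67.1 CPM in the KC_EV libraries and at 82.8, 81.8 and 81.9 CPM in the KC_Epo libraries. All KC_Epo libraries lay above KC_EV, and the log2 fold change was 0.26 ± 0.07 (SE, as for all log2 fold changes here) with an edgeR adjusted p of 0.0141. Ndufv3, an accessory subunit of the NADH-oxidising module, stood at 47.3, 48.1 and 47.6 CPM in the KC_EV libraries and at 51.2, 59.4 and 56.1 CPM in the KC_Epo libraries. Its rise was 0.22 ± 0.08 (edgeR adjusted p = 0.0478), again without overlap. These were small rises close to the threshold. The call for Ndufa10 was lost without KC_EV 2, KC_EV 3 or KC_Epo 3 (adjusted p of 0.0551 to 0.0693), and that for Ndufv3 without any 1 library other than KC_Epo 1 (0.0791 to 0.146). Ndufv3 also did not pass with DESeq2 or limma-voom.

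The 8 complex I assembly factors (Ndufaf genes), which build the complex and are not part of it, all had negative estimates, from -0.42 to -0.05 with a median of -0.23. For 5 of the 8 every KC_Epo library lay below KC_EV, as for 24.2% of all genes. None passed by edgeR, DESeq2 or limma-voom. Ndufaf5, named after its value was seen, had an unadjusted p under 0.05 and was called lower with upper-quartile factors. With library sizes alone 4 were called lower.

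Complex II, succinate dehydrogenase, also works in the citric acid cycle, and all its subunits are nuclear. Sdhc, one of its membrane anchors, had the smallest adjusted p of all members. It measured 93.7, 93.2 and 101 CPM in the KC_EV libraries and 121, 140 and 129 CPM in the KC_Epo libraries, and the lowest KC_Epo library exceeded the highest KC_EV library. The log2 fold change was 0.44 ± 0.08, with an edgeR adjusted p of 0.00108, and the call held in all 18 alternatives tried. Sdha, the flavoprotein that oxidises succinate, did not pass, with 162, 148 and 156 CPM against 151, 196 and 181 CPM (log2 fold change 0.18 ± 0.09, edgeR adjusted p = 0.153), but was called higher without KC_Epo 1 (0.29, adjusted p = 0.00835). The 4 complex II genes summed to 510, 474 and 517 CPM in the KC_EV libraries and 524, 618 and 575 CPM in the KC_Epo libraries. On this TMM scaling each KC_Epo sum lay above the KC_EV sums, and other scalings of the sum were not run.

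Complex III, which takes electrons from ubiquinol to cytochrome c, held a called gene in each direction among 9. Cyc1, the cytochrome c1 haem subunit, measured 78.6, 77.3 and 80.4 CPM in the KC_EV libraries and 86.5, 98.6 and 94.2 CPM in the KC_Epo libraries. It rose by 0.24 ± 0.07 on the log2 scale (edgeR adjusted p = 0.0232). Uqcrh, the hinge protein beside cytochrome c1, measured 184, 173 and 177 CPM in the KC_EV libraries and 148, 151 and 153 CPM in the KC_Epo libraries. It fell by 0.24 ± 0.07 (edgeR adjusted p = 0.0143). Neither gene's groups overlapped, so with TMM scaling neighbours in the same complex moved in opposite directions by about the same size. Cyc1 did not pass with upper-quartile factors or with library sizes alone. Under these settings Uqcrh had -0.31 and -0.40 (edgeR adjusted p of 0.00441 and 0.000552). The call for Cyc1 was lost without KC_EV 2, KC_EV 3, KC_Epo 2 or KC_Epo 3 (adjusted p of 0.0577 to 0.0878), and that for Uqcrh without KC_EV 3 or KC_Epo 3 (0.0523 and 0.0696).

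Cycs, the soluble cytochrome c that carries electrons from complex III to complex IV, stood at 63.6, 57.5 and 61.8 CPM in the KC_EV libraries and 55.9, 50.5 and 55.6 CPM in the KC_Epo libraries. Every KC_Epo library lay below KC_EV, but the difference of -0.18 ± 0.08 did not pass (edgeR adjusted p = 0.0994). It passed with upper-quartile factors (-0.24, adjusted p = 0.0341) and with library sizes alone (-0.33, adjusted p = 0.00636).

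Complex IV, cytochrome c oxidase, reduces oxygen. Of its 15 tested nuclear subunits 2 fell. Cox6b1, which lies between the monomers of the dimeric enzyme on the intermembrane side, had the largest fall of the called genes. It measured 178, 160 and 174 CPM in the KC_EV libraries and 113, 135 and 124 CPM in the KC_Epo libraries, so the groups did not overlap. The log2 fold change was -0.46 ± 0.08, or 0.727 of the KC_EV level (edgeR adjusted p = 0.00116), and the call held in all 18 alternatives.

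Cox5a, an early-joining subunit of complex IV, had the highest level per kilobase of its nuclear genes, at 635 CPM per kb in KC_EV and 488 in KC_Epo against 409 and 421 for Cox4i1. In CPM it measured 441, 388 and 400 CPM in the KC_EV libraries and 291, 338 and 316 CPM in the KC_Epo libraries. It fell by 0.38 ± 0.08 (edgeR adjusted p = 0.00392), with no overlap between groups. The remaining 13 tested subunits of the complex did not pass. Its summed nuclear genes, assembly factors included, measured 2080, 2029 and 2050 CPM in the KC_EV libraries and 1803, 2099 and 1989 CPM in the KC_Epo libraries, an overlap. Cox5a shares 32.1% of its 50-base windows with transcripts of other genes, so its value is uncertain, and Cox6b1 shares 0%.

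Of the 9 complex IV assembly factors 2 rose. Cox19, a copper-related factor of the intermembrane space, measured 18.5, 20.7 and 18.5 CPM in the KC_EV libraries and 24.5, 27.9 and 22.2 CPM in the KC_Epo libraries, a log2 fold change of 0.38 ± 0.11 (edgeR adjusted p = 0.0235). Cox15, which makes the haem A that the enzyme needs, measured 29.98, 28.9 and 31.9 CPM in the KC_EV libraries and 34.5, 38.5 and 36.1 CPM in the KC_Epo libraries, a log2 fold change of 0.27 ± 0.09 (edgeR adjusted p = 0.0356). Groups did not overlap for either. Leaving out KC_EV 1, KC_EV 3 or KC_Epo 2 ended the call for Cox19 (adjusted p of 0.0673 to 0.0829), and leaving out any 1 library other than KC_Epo 1 ended that for Cox15 (0.0509 to 0.124).

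Several complex IV subunits exist as pairs of genes, one widespread and one known from heart and muscle, lung or testis. In these Kupffer cells the widespread gene carried nearly all the counts of each pair. Cox4i1 ran from 280 to 356 CPM over the 6 libraries and Cox4i2, the lung and hypoxia form, from 0.288 to 0.599 CPM. Cox6a1 ran from 148 to 182 CPM against 0.347 to 1.12 CPM for Cox6a2. Cox6b2, the testis form, ran from 1.28 to 2.51 CPM beside Cox6b1. Cox7a2 ran from 62.2 to 81.8 CPM against 0.483 to 1.09 CPM for Cox7a1. Per kilobase of transcript the KC_EV means were 409 and 0.578 CPM per kb for Cox4i1 and Cox4i2, 265.5 and 0.855 for Cox6a1 and Cox6a2, 276 and 3.31 for Cox6b1 and Cox6b2, and 117.5 and 1.94 for Cox7a2 and Cox7a1. None of these minor forms passed by edgeR, DESeq2 or limma-voom, and their counts per library were small enough, 9 to 85, that the depth limits any comparison of them.

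None of the widespread forms other than Cox6b1 passed. The log2 fold change was 0.04 ± 0.09 for Cox4i1, 0.15 ± 0.08 for Cox6a1, -0.11 ± 0.09 for Cox7a2, 0.12 ± 0.09 for Cox8a and 0.16 ± 0.08 for Cox7a2l, a supercomplex factor, and edgeR's adjusted p was 0.161 or more for each. Without KC_Epo 1, Cox6a1, Cox8a and Cox7a2l were called higher (0.22, 0.23 and 0.23, edgeR adjusted p of 0.0273, 0.023 and 0.0362). Ndufa4, named for complex I but found in complex IV, had -0.13 ± 0.09 (edgeR adjusted p = 0.282) at 84.4 to 112 CPM, while its hypoxia-linked relative Ndufa4l2 stood at 0.032 to 0.236 CPM and was not tested.

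Of 15 subunits of complex V, ATP synthase, 3 fell and 1 rose. With upper-quartile factors 4 fell, with library sizes alone 6, and without KC_EV 1 or KC_EV 3, or without KC_Epo 3, 1 fell. The balance turned without KC_Epo 1, where 4 rose and 2 fell. Atp5k, the small membrane subunit e at the dimer interface, measured 55.4, 50.7 and 51.5 CPM in the KC_EV libraries and 37.5, 41.7 and 38.6 CPM in the KC_Epo libraries. It fell by 0.42 ± 0.08 (edgeR adjusted p = 0.00186). Atp5l, subunit g of the same interface, measured 72.4, 61.7 and 65.9 CPM in the KC_EV libraries and 56.0, 58.0 and 55.9 CPM in the KC_Epo libraries. It fell by 0.23 ± 0.08 (edgeR adjusted p = 0.0375). Neither gene's groups overlapped. The call for Atp5l was lost without any 1 library other than KC_EV 2 (adjusted p of 0.0588 to 0.146), and 84.9% of its 50-base windows are also found in transcripts of other genes, so its value is uncertain.

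Atp5e, the epsilon subunit of the central stalk, measured 111, 107 and 114 CPM in the KC_EV libraries and 74.2, 97.9 and 92.1 CPM in the KC_Epo libraries, a fall of 0.33 ± 0.10 on the log2 scale (edgeR adjusted p = 0.0204). KC_Epo 1 was the lowest and the groups did not overlap. Atp5d, the delta subunit of the same stalk, measured 97.9, 102 and 114 CPM in the KC_EV libraries and 111, 130 and 128 CPM in the KC_Epo libraries. Its rise of 0.24 ± 0.08 (edgeR adjusted p = 0.0478) came with overlap, since KC_Epo 1 lay below KC_EV 3. Without KC_EV 1, KC_EV 3 or KC_Epo 3 the call for Atp5e was lost (adjusted p of 0.0549 to 0.0827), and that for Atp5d without KC_EV 1, KC_EV 2, KC_Epo 2 or KC_Epo 3 (0.106 to 0.16). Atp5a1, the alpha subunit of the catalytic head, measured 422, 396 and 408 CPM against 385, 476 and 447 CPM and did not pass (0.09 ± 0.08, edgeR adjusted p = 0.42).

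**Figure D3:**
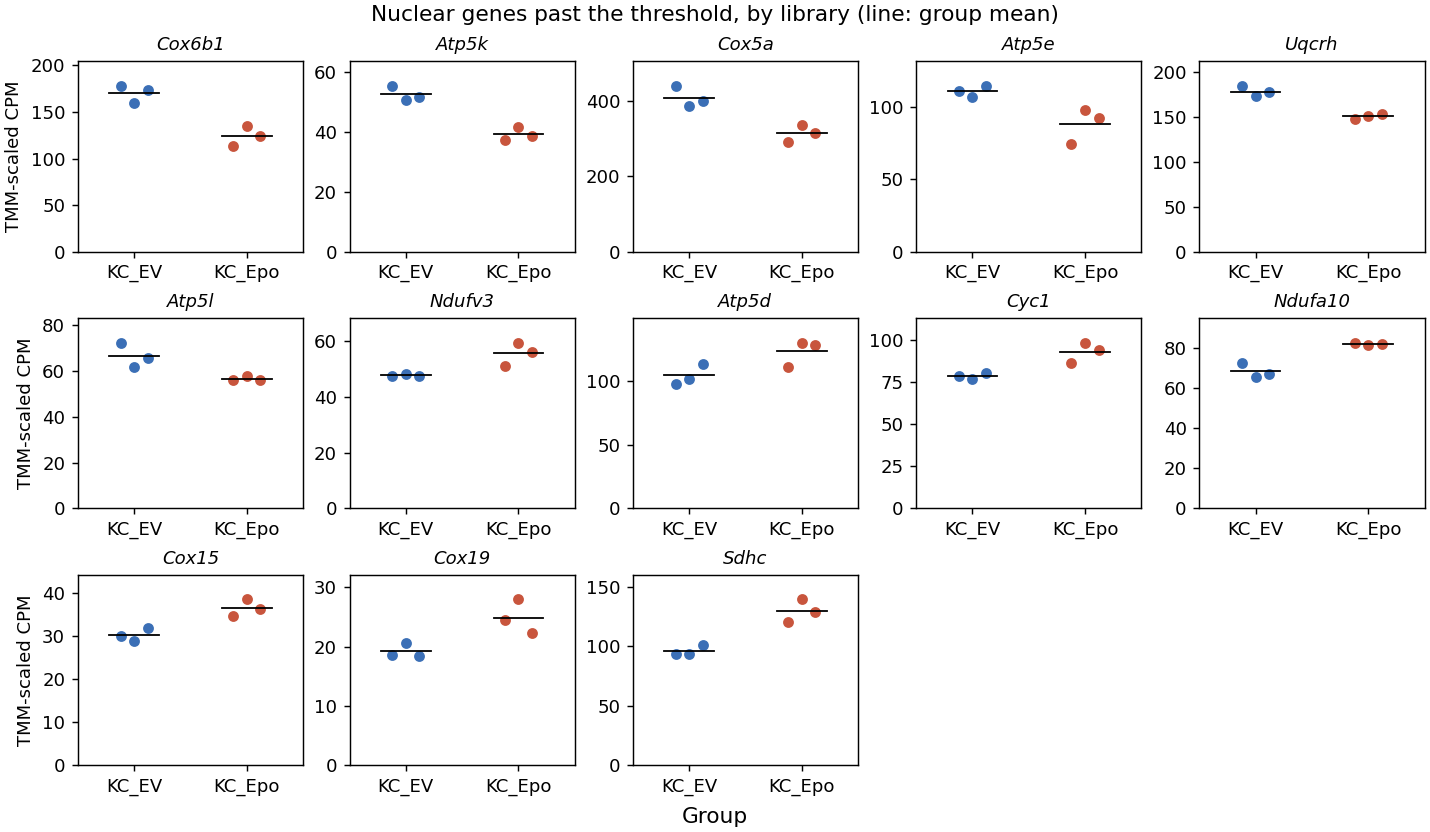
TMM-scaled CPM of the 13 nuclear genes past an adjusted p of 0.05 (y axes from 0, 1 panel per gene) in KC_EV and KC_Epo (x axis); points are libraries 1 to 3 from left to right and the line is the group mean. Groups are apart in every panel except that of Atp5d, where KC_Epo 1 at 111 CPM lies below KC_EV 3 at 114 CPM.

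Under alternative settings the 13 called genes fell into firmer and weaker calls. Cox6b1 and Sdhc passed in all 18, Cox5a and Atp5k in 17, missing only the test against a 1.2-fold change, Uqcrh in 15 and Atp5e in 14. Ndufa10 passed in 13, Cox19 in 12, Cyc1 in 11 and Atp5l in 10. Cox15 passed in 9, Atp5d in 8 and Ndufv3 in 6. With upper-quartile factors 5 of the 7 rises no longer passed, and with library sizes alone 6, leaving Sdhc.

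The called genes differed in transcript length, a property that the choice of members did not use. In the GENCODE M21 annotation the 6 genes called lower have principal transcripts of 371 to 645 bases (median 545.5) and proteins of 52 to 146 residues. Where a gene had several principal transcripts of equal rank the longest was taken, and which transcript these cells express was not tested. The 7 called higher have transcripts of 1410 to 4798 bases (median 2020) and proteins of 92 to 468 residues, and the 2 ranges of transcript length do not overlap. The ranges were also apart in 14 of 18 alternatives. Most of these 14 called no member beyond the genes above, so in them the ranges had to stay apart. The ranges overlapped with library sizes alone and under upper-quartile scaling, where genes of up to 4371 bases were called lower. They also overlapped without KC_EV 1, where the same limit held, and without KC_Epo 1, where genes from 545 bases upward were called higher. The 86 tested nuclear members not called ran from 393 to 4715 bases with a median of 963. In length classes chosen after the values were seen, 4 of the 20 members under 600 bases and 2 of the 31 from 600 to 1000 bases fell, and 3 of 33 from 1000 to 2000 bases and 4 of 15 longer ones rose.

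Across the 99 nuclear members Spearman's rho between transcript length and log2 fold change was 0.222, and across 13052 genes it was -0.0449. Genes in 1 library share its depth and composition, so these are descriptions. All genes under 600 bases, 162 in number, had a median log2 fold change of -0.08, against -0.06 for the 20 members in that class. The part of length in these calls was not tested.

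**Figure D4:**
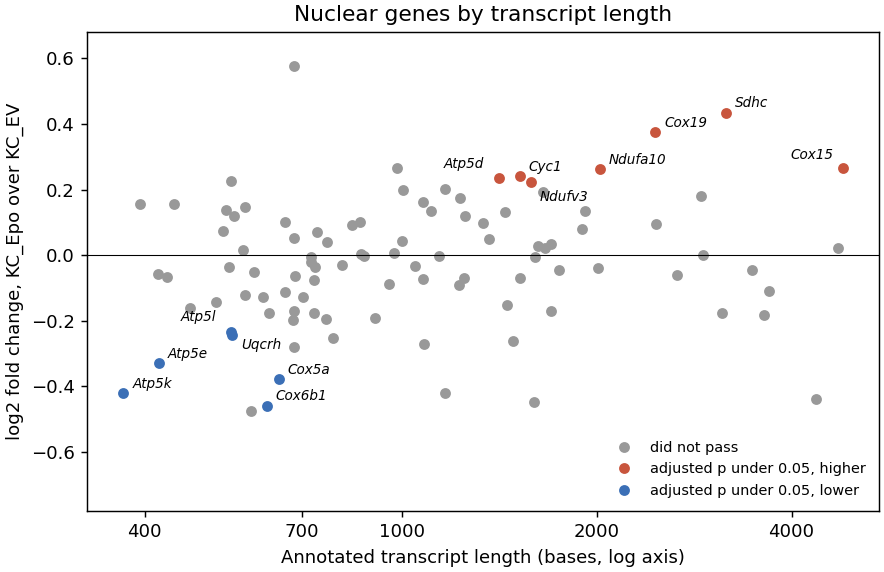
log2 fold change of KC_Epo over KC_EV (y axis) against the annotated transcript length in bases (x axis, log scale) for 99 nuclear members; blue points passed an adjusted p of 0.05 as lower, red as higher, grey did not pass. The 6 blue points lie between 371 and 645 bases and the 7 red points between 1410 and 4798 bases, ranges that overlap under 4 of 18 alternative settings.

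Promoters of respiratory chain genes are known for sites of NRF1, of the ETS family factor GABP and of YY1, and they are shown here for 4 of the 6 genes that fell. RefSeq promoter windows of 300 bases (250 before to 50 after the start, GRCm38.p6) were matched for 82 of the 100 nuclear members. The NRF1 core CGCATGCG, on either strand, stood in 12 of 82 windows (14.6%), against 4.07% of 10413 tested genes. The ETS core CCGGAAG stood in 23 of 82 (28.0%) against 19.1%, and the YY1 core AAGATGGC in 13 of 82 (15.9%) against 5.02%. None of the 3 motifs contains another, and a match is a description of these letters only.

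Among the 6 genes that fell, 5 windows held the ETS core and 2 the NRF1 core. Among the 5 genes that rose and had a window, 1 held the ETS core and 0 the NRF1 core. Sdhc and Cyc1 had no window in the table. Within the 120 bases before the start, 4 of the genes that fell held an ETS or NRF1 core, and only these 4 are printed. Of those not printed, Atp5l had its cores elsewhere in its window and Cox5a had none. The 120 bases of the 4 printed genes are given 5′ to 3′ on the gene's strand. The ETS core (as CTTCCGG, its reverse complement) or the NRF1 core is in capitals. They lie at chr7:30626115-30626234 (Cox6b1), chr4:116075071-116075190 (Uqcrh), chr2:174464102-174464221 (Atp5e) and chr5:108434400-108434519 (Atp5k), all on the minus strand of GRCm38.p6.
Cox6b1: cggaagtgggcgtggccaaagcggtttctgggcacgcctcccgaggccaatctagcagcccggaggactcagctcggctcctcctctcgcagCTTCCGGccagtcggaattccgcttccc
Uqcrh: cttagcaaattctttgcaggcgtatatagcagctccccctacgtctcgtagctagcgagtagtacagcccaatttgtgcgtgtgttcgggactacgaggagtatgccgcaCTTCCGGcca
Atp5e: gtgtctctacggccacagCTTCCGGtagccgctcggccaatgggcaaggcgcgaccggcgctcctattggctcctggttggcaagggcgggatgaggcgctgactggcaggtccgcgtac
Atp5k: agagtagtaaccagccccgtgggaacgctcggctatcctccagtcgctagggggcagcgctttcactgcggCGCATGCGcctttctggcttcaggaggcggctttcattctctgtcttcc

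The 13 mt- genes differed more between libraries of a group than between groups. None passed in either direction by edgeR, DESeq2 or limma-voom, 0 had an unadjusted p under 0.05, and for none were the groups apart. Estimates (log2) ran from -0.45 to 0.34, their median being -0.12, 9 negative and 4 positive. Over the group they summed to 5081, 6723 and 5582 CPM in the KC_EV libraries and 6360, 3121 and 4989 CPM in the KC_Epo libraries. As a share of all counts this was 0.533%, 0.717% and 0.588% in KC_EV and 0.61%, 0.291% and 0.472% in KC_Epo, with means of 0.613% ± 0.094 and 0.458% ± 0.16 (SD, n = 3 each). The highest library thus held 2.46 times the share of the lowest, while for the nuclear genes that ratio was 1.19.

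The sign of the median rested on single libraries. KC_Epo 2 was the lowest of the 6 libraries for 12 of 13 mt- genes, and the KC_Epo libraries stood in the order 1, 3, 2 from high to low for 10 of 13. How often all genes did so was not counted. Without KC_Epo 2 the median log2 fold change was 0.22, with 8 of 13 positive, without KC_EV 2 it was 0.02, and without KC_Epo 1 it was -0.45. The summed hepatocyte markers stood in the same order 1, 3, 2 within KC_Epo, at 20590, 12310 and 6028 CPM, and their part in the mt- values was not tested. The ratio of mt- to nuclear respiratory chain CPM was 0.636, 0.876 and 0.705 in the KC_EV libraries and 0.869, 0.375 and 0.623 in the KC_Epo libraries.

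mt-Co1, the catalytic subunit of complex IV, was the highest member of all, also per kilobase, at 2737, 3640 and 3031 CPM in the KC_EV libraries and 3331, 1645 and 2616 CPM in the KC_Epo libraries. Its log2 fold change was -0.31 ± 0.29 (edgeR adjusted p = 0.48). It took 52.4% to 54.3% of mt- counts in every library, so its share of them moved far less than their total. mt-Cytb, the haem-carrying core of complex III, followed at 757, 1033 and 850 CPM in the KC_EV libraries and 1031, 495 and 786 CPM in the KC_Epo libraries (-0.19 ± 0.31, edgeR adjusted p = 0.69). It held 14.9% to 16.2% of mt- counts.

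Of the complex I subunits encoded in mitochondrial DNA, 5 showed this order of KC_Epo libraries, and mt-Nd3 and mt-Nd6, both low, did not. mt-Nd1 measured 496, 634 and 520 CPM in the KC_EV libraries and 597, 300.4 and 483 CPM in the KC_Epo libraries. mt-Nd2 measured 428, 554 and 440.0 CPM in the KC_EV libraries and 517, 275 and 406 CPM in the KC_Epo libraries. mt-Nd4 measured 333, 425 and 350 CPM in the KC_EV libraries and 367, 188 and 293 CPM in the KC_Epo libraries, with the smallest adjusted p of the mt- genes (-0.39 ± 0.28, edgeR adjusted p = 0.356). In all 3 genes KC_Epo 1 lay within the KC_EV range and KC_Epo 2 well below it. mt-Nd5 measured 273, 347 and 297 CPM in the KC_EV libraries and 396, 182 and 311 CPM in the KC_Epo libraries, so KC_Epo 1 was the highest library here.

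mt-Nd6, the only member encoded on the light strand, stood at 2.52, 3.52 and 3.10 CPM in the KC_EV libraries and 4.403, 2.41 and 4.79 CPM in the KC_Epo libraries. Its estimate of 0.34 ± 0.30 was the highest of the mt- genes and did not pass (edgeR adjusted p = 0.414). Its share of mt- counts was 0.0496% to 0.0555% in KC_EV and 0.0692% to 0.0959% in KC_Epo, with no overlap. Such shares were also apart for mt-Cytb and mt-Nd5, higher in KC_Epo, and for mt-Co1 and mt-Nd4, lower in KC_Epo. For the remaining mt- genes they overlapped. Shares of a common total depend on each other, and these differences were not tested. mt-Atp8 (1.19 to 3.53 CPM), mt-Nd4l (0.451 to 2.04 CPM) and mt-Nd3 (0.29 to 1.96 CPM) were also near the bottom.

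mt-Co2, mt-Co3 and mt-Atp6, which encode core subunits of complexes IV and V, were far lower than mt-Co1. mt-Co2 ran from 9.62 to 34.5 CPM over the libraries, mt-Co3 from 10.04 to 32.8 CPM and mt-Atp6 from 11.9 to 44.0 CPM. Per kilobase of transcript mt-Co1 stood at 2030 ± 298 CPM per kb in KC_EV, while mt-Atp6, mt-Co2 and mt-Co3 stood at 38.4 ± 7.4, 31.9 ± 7.9 and 31.9 ± 12.2 CPM per kb (SD, n = 3 each). All these RNAs are encoded on the same strand of mitochondrial DNA.

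These low genes have near-complete copies in nuclear DNA. Every 50-base window of each mt- gene was looked for in the nuclear transcripts of GENCODE M21. An exact match was found for 100% of the windows of mt-Co2, 99.9% of mt-Co3, 99.5% of mt-Atp6, 98.8% of mt-Nd4l and 98.0% of mt-Nd3. For mt-Nd4 the share was 62.2% and for mt-Co1 51.1%, for mt-Nd2 8.19% and for mt-Nd5 7.61%, and for mt-Cytb, mt-Nd1, mt-Atp8 and mt-Nd6 it was 0%. For the first 5 and for mt-Nd4 and mt-Co1 the transcript with the most matches lies on chromosome 1 in that annotation. Nuclear DNA outside annotated transcripts was not searched, so a share of 0% does not mean that no nuclear copy exists.

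A read from such a stretch matches both places. Whether it was counted depends on the authors' options, not given in the sources at hand, so the levels of mt-Co2, mt-Co3, mt-Atp6, mt-Nd4l and mt-Nd3 are uncertain, and those of mt-Co1 and mt-Nd4 in part. Genes with 0% were both high and low: mt-Cytb stood at 769 and mt-Nd1 at 575 CPM per kb in KC_EV, and mt-Atp8 at 8.41 and mt-Nd6 at 5.87. The part of the copies in these levels was not tested.

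**Figure D5:**
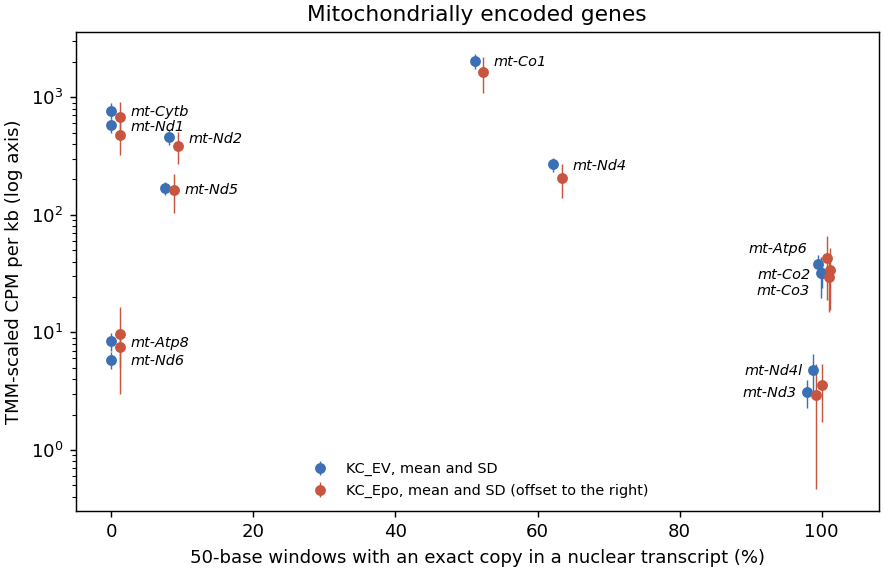
TMM-scaled CPM per kilobase (y axis, log scale, mean and SD over 3 libraries, blue KC_EV, red KC_Epo) against the percent of a gene's 50-base windows found exactly in a nuclear transcript (x axis) for the 13 mt- genes. The 5 genes at 97.99% or more lie at or below 42.6 CPM per kb, and the SD bars of the 2 groups overlap for each of the 13 genes.

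Stretches of 60 bases of 3 of these genes and of their nuclear relatives show how close the copies are, with differing bases in capitals and positions counted from the first base of each transcript. mt-Co2 (bases 301 to 360) and the nuclear pseudogene Gm28661 are the same in all 60 bases. mt-Nd3 and Gm28438 (bases 1 to 60 of both) have 1 difference. mt-Nd1 (bases 601 to 660) and Gm11834 (bases 229 to 288) have 16 differences, enough that reads of this stretch can be told apart.
mt-Co2: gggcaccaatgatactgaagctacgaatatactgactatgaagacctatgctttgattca
Gm28661: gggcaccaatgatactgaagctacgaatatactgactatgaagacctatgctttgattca
mt-Nd3: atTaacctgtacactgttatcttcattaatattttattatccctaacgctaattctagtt
Gm28438: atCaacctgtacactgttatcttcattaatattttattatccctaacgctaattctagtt
mt-Nd1: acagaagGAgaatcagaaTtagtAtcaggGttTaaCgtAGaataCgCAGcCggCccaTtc
Gm11834: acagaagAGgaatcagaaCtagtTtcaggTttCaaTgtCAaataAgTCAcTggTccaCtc

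Other mitochondrial genes were read from 10 lists, chosen with earlier results of these data known. Of 290 tested genes 40 rose and 18 fell, a share of 20% against the 32.3% of all genes, and the median (log2) was 0.05. The citric acid cycle, which feeds NADH and succinate to the chain, had 8 of 19 called, all as higher, a share of 42.1% and a median of 0.14. Idh3a, the catalytic subunit of the NAD-linked isocitrate dehydrogenase, measured 49.1, 45.4 and 43.6 CPM in the KC_EV libraries and 66.8, 67.0 and 65.4 CPM in the KC_Epo libraries (0.53 ± 0.07, edgeR adjusted p = 0.00027). Idh2, the NADP-linked isocitrate dehydrogenase, rose by 0.45 ± 0.09 (edgeR adjusted p = 0.00227). Others called, named after their values were seen, included Cs, Ogdh, Dlst, Suclg2 and Mdh2.

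Fatty acid oxidation, the other supplier of electrons, had 5 of 19 called as higher and 1 as lower, a share of 31.6% that was near the 32.3% of all genes. Acads, the short-chain acyl-CoA dehydrogenase, rose by 0.47 ± 0.11, Etfb, a subunit of the flavoprotein that takes electrons from these dehydrogenases, by 0.37 ± 0.11, and Cpt1a, which starts the import of fatty acids, by 0.25 ± 0.07 (edgeR adjusted p of 0.00598, 0.0212 and 0.0147). The others called, named after their values were seen, were Acaa2 and Echs1 as higher and Decr1 as lower. The call for Cpt1a was lost without KC_EV 2 or KC_Epo 3 (adjusted p of 0.0806 and 0.0672), and that for Etfb without KC_EV 1, KC_EV 3, KC_Epo 1 or KC_Epo 3 (0.0513 to 0.0659). Hepatocytes also express the genes of both lists, and the hepatocyte marker sums given above were higher in the same libraries. Their part in these rises was not tested.

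The list of uncoupling, carrier, ubiquinone and redox genes had 2 of 25 called as higher and 1 as lower, a share of 12%. Ucp2, an inner membrane carrier named for uncoupling, measured 997, 1007 and 1057 CPM in the KC_EV libraries and 1410, 1816 and 1593 CPM in the KC_Epo libraries, well apart (0.65 ± 0.09, edgeR adjusted p = 0.000271). Gpx4, which reduces lipid peroxides, rose by 0.35 ± 0.09, and Sod2, the matrix superoxide dismutase, fell by 0.29 ± 0.07 (edgeR adjusted p of 0.00797 and 0.00866).

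Regulators of mitochondrial biogenesis gave 3 rises and 1 fall among 14, a share of 28.6% that was near the 32.3% of all genes. Myc, a growth regulator, measured 146, 141 and 145 CPM in the KC_EV libraries and 229, 268 and 252 CPM in the KC_Epo libraries (0.80 ± 0.07, edgeR adjusted p = 1.25e-05). The nuclear receptors Ppard and Pparg rose by 0.66 ± 0.10 and 0.51 ± 0.12 (edgeR adjusted p of 0.000512 and 0.00872), and Sirt1, named after its value was seen, was the fall. Genes that maintain, transcribe and translate mitochondrial DNA gave 5 rises and 1 fall among 40, a share of 15%. Polg2, the accessory subunit of the mitochondrial DNA polymerase, rose by 0.68 ± 0.17, Fastk, of a family of mitochondrial RNA-binding proteins, by 0.37 ± 0.10, and Lrpprc, which stabilises mt- mRNAs, by 0.28 ± 0.08 (edgeR adjusted p of 0.0102, 0.0158 and 0.0181). Gfm2 and Top1mt were the other rises and Mterf2 the fall, named after their values were seen. The call for Fastk was lost without KC_Epo 3 (adjusted p = 0.0687) and that for Lrpprc without KC_EV 3 or KC_Epo 3 (0.0771 and 0.0675).

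Of 77 mitochondrial ribosomal protein genes 6 rose and 8 fell, a share of 18.2%, with a median of -0.03. Mrpl52 fell by 0.48 ± 0.08 and Mrpl13 by 0.37 ± 0.08, while Mrps6 rose by 0.44 ± 0.09 (edgeR adjusted p of 0.000531, 0.00454 and 0.00397). Among 39 assembly factors outside the members' names 3 rose and 3 fell, a share of 15.4%. Uqcc1 and Uqcc2, which act together in making complex III, went opposite ways, by 0.54 ± 0.11 and -0.30 ± 0.08 (edgeR adjusted p of 0.00335 and 0.0131). Coa5, a complex IV factor, rose by 0.29 ± 0.07 (edgeR adjusted p = 0.00877). Oxa1l as higher and Cmc2 and Sdhaf4 as lower, named after their values were seen, made up the rest. The call for Coa5 was lost without KC_EV 2 (adjusted p = 0.0551) and that for Uqcc2 without KC_EV 3 or KC_Epo 3 (0.0614 and 0.0824).

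Mitophagy and dynamics genes, which clear, fuse and divide mitochondria, had 6 of 21 called as higher. This share of 28.6% was near the 32.3% of all genes. Sqstm1, the autophagy adaptor p62, measured 268, 243 and 247 CPM in the KC_EV libraries and 337, 359 and 361 CPM in the KC_Epo libraries (0.48 ± 0.07, edgeR adjusted p = 0.000391). The kinases Tbk1 and Pink1 rose by 0.23 ± 0.07 and 0.27 ± 0.09 (edgeR adjusted p of 0.0253 and 0.0295). Import and cristae genes gave 2 rises and 1 fall among 28, a share of 10.7%. Immt had 0.21 ± 0.07, Timm44 0.19 ± 0.07 and Tomm7 -0.30 ± 0.08 (edgeR adjusted p of 0.0324, 0.0447 and 0.0128). Calls were lost for Tbk1 without KC_EV 2, KC_EV 3 or KC_Epo 3 (0.0781 to 0.103) and for Pink1 without KC_EV 1, KC_EV 2, KC_Epo 2 or KC_Epo 3 (0.0553 to 0.0823). They were lost for Immt without KC_EV 2, KC_EV 3, KC_Epo 1 or KC_Epo 3 (0.0584 to 0.117) and for Timm44 without any 1 library (0.0643 to 0.113).

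Genes linked to hypoxia, which is known to switch some subunits of the chain, had 2 of 11 called as lower, a share of 18.2%. Vegfa, a secreted target of the hypoxia response, measured 18.7, 21.5 and 22.7 CPM in the KC_EV libraries and 16.4, 8.62 and 13.1 CPM in the KC_Epo libraries (-0.72 ± 0.21, edgeR adjusted p = 0.0305). Hif1a, its transcription factor, fell by 0.26 ± 0.09 (edgeR adjusted p = 0.0387). Both calls were fragile: that for Vegfa was lost without KC_EV 1, KC_EV 2, KC_EV 3 or KC_Epo 3 (adjusted p of 0.0552 to 0.103) and that for Hif1a without any 1 library other than KC_EV 3 (0.0727 to 0.111). The hypoxia forms of the subunits, Cox4i2 and Ndufa4l2, stayed below 1 CPM in every library of both groups.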

How the data were processed

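Messenger RNA of sorted Kupffer cells was measured in 6 libraries, 3 per group. An Illumina TruSeq stranded kit was used on polyA RNA, per the labels' protocols. The submitters' processing notes list the build GRCm39 and, without roles, HTSeq 0.11.2, STAR 2.7.3a, Bowtie2 2.5.1 and FastQC 0.11.8. Raw whole-number counts of reads by gene symbol were deposited by the authors in a table of 15458 rows, and 12 symbols standing on 2 rows were renamed on the second. Counts were fitted over the whole table with edgeR 4.0.16 (R 4.3.3; TMM, filterByExpr, robust quasi-likelihood fit, two-sided test, no block). P-values were adjusted by Benjamini-Hochberg over all 13120 tested genes, with calls at 0.05. The procedure was tested on simulated data first. The labels number mice within a group and do not say that each library was a separate animal, so p-values reflect only how far these libraries spread, and no pair agreed within sampling noise (lowest chi-square per gene 6.15).

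Members and lists were chosen with earlier results of these data known. The genes named were the mt- genes, the nuclear members past the threshold, the isoform pairs, the highest CPM of each complex, and up to 3 called genes with the smallest adjusted p per related list. Some genes that this rule names are not reported here. Of the genes in those lists 3 were found by an older symbol, and those with no match were not used. Lengths and copies come from GENCODE M21 (GRCm38), another build than the authors', and promoters from RefSeq (GRCm38.p6). Alternatives were other size factors, filters and fits, a test against a 1.2-fold change, DESeq2 1.42.0, limma-voom (limma 3.58.1) and each library left out.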

Additional observations from a re-analysis of the deposited data

How the results depend on the processing

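For nuclear members called higher (7) and lower (6), upper-quartile factors gave 2 and 16, library sizes only 1 and 34, and a test against a 1.2-fold change 1 and 1. These factors change the reference level by construction: the median of all genes moved to -0.0667 and -0.163. Leaving out 1 library gave 2 to 18 higher, with 18 without KC_Epo 1, and 3 to 7 lower, with 3 without KC_EV 3 or KC_Epo 3, and the cause was not tested. The count of called genes in the related lists, 58, was 9 against a 1.2-fold change and 27 to 55 with 1 library left out, lowest without KC_Epo 3. The difference in the share of counts on nuclear respiratory chain genes, -0.0847 percentage points, was 0.00217 on TMM-scaled library sizes. The count of called mt- genes was 0 under all 18 alternatives. No result that was called changed sign. With the replicate number as a block, 6 nuclear members were higher and 5 lower, 10 of the 13 calls held, and the related lists had 40. Same-numbered libraries were not paired by the data (correlations of deviations of -0.108, -0.148 and -0.0407).

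Minor isoforms and the lowest mt- genes rest on few counts per library, so depth limits their comparison. With 3 libraries per group and a group-wide difference in composition, the number of nuclear members called in each direction depends on the size factors. Reads shared with nuclear copies could not be separated in a table of counts.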
